A study of Mus musculus with 12 samples.

Results

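The cytosolic heat shock genes described here are 10 protein-coding genes of mouse liver, Hspa1a, Hspa1b, Hspa8, Hsph1, Hsp90aa1, Hsp90ab1, Dnajb1, Hspb1, Hspd1 and Hspe1. They were chosen by gene symbol for their place in the heat shock response, with earlier results of these data known. All 10 were present among 55903 genes, and 9 passed a minimum mean of 1 TPM over all libraries. TPM measures transcripts per length and scales every library to the same total, so levels can be set side by side between genes. Hspa1a did not pass the minimum and was left out of the fitted comparisons.

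RNA-seq was made from total liver RNA of mice in 12 libraries, 4 in each of 3 groups. The first group is a young control. The second is titled an aged control and its condition is given as aged, while its description reads doxo, which probably stands for doxorubicin, a chemotherapy agent that damages DNA. Whether age, drug or both are meant is not settled by the labels, and the name aged/doxo is used for it. The third group, called treated, received a compound known by the code KSL0608-Se, which its description joins to doxo. The sources used here do not give strain, sex, age in weeks, dose or time of treatment. They do not tie libraries to animals either, and a p-value therefore rests on the spread among libraries, which may be technical. The title of the study speaks of light-controlled removal of senescent cells. The comparisons therefore ask how heat shock transcripts differed between young control and aged/doxo liver, and between treated liver and each of these.

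Heat shock proteins are chaperones, which bind unfolded proteins and help them fold or pass them on for degradation. HSP70 proteins work in cycles of ATP hydrolysis that J-domain partners start and nucleotide exchange factors complete, and HSP90 proteins take over clients such as kinases and steroid receptors. Under heat or other proteotoxic stress the transcription factor HSF1 forms trimers, binds heat shock elements (inverted repeats of the bases GAA) and raises the inducible members, above all Hspa1a and Hspa1b, while Hspa8 and Hsp90ab1 are abundant without stress. Hspd1 and Hspe1 belong to the same response, but their proteins, HSP60 and HSP10, form the chaperonin of the mitochondrial matrix. The word cytosolic thus fits 8 of the 10 gene products.

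Sequences upstream of the start sites are shown because they hold the heat shock elements and because Hspa1a and Hspa1b turned out almost identical there. They come from RefSeq on GRCm38.p6, where 7 of the 10 genes were matched; Hspa8, Hsp90aa1 and Hsp90ab1 were not. The 250 bases before the start sites of Hspa1a (chr17:34972157-34972406, minus strand) and Hspa1b (chr17:34959239-34959488, minus strand) follow, 5′ to 3′, with capitals at the positions where they differ.
Hspa1a: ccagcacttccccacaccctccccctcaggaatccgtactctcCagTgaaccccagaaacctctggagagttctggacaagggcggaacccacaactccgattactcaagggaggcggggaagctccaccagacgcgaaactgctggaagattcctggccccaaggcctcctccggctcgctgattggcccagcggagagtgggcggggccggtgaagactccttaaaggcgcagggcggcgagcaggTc
Hspa1b: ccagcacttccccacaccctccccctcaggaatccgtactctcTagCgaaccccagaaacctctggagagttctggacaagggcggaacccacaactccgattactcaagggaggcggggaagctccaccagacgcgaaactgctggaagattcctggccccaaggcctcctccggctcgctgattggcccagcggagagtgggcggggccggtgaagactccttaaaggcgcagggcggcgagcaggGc
They differed at 3 of 250 positions (98.8% identity). Counted from 1 at the 5′ end with the base of Hspa1a first, the differences were C44T, T47C and T249G.

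The windows were searched for 8-base heat shock elements, TTCNNGAA and GAANNTTC, and for 13-base forms that join overlapping copies of them, GAANNTTCNNGAA and TTCNNGAANNTTC, on both strands. An 8-base form lay in the 250 upstream bases of 6 of the 7 matched genes, against 12.8% of 32851 RefSeq windows. A gene was counted if any of its windows matched, whereas the share is per window, so the measures are unlike. The 6 genes are not separate cases, since Hspd1 and Hspe1 share a stretch and Hspa1a and Hspa1b are near copies. A 13-base form lay upstream of Hspd1 and Hspe1, against 0.466% of windows, and neither form lay in the windows of Dnajb1. A match is a run of letters and not a measured binding site. The runs below are 30 bases each, on the strand of the gene, with the matched motif in capitals.
Hspe1 (chr1:55088053-55088082, plus strand): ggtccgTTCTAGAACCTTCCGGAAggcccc
Hspd1 (chr1:55088053-55088082, minus strand): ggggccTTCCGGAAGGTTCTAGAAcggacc
Hspa1a (chr17:34972242-34972271, minus strand): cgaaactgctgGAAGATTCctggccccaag
Hspa1b (chr17:34959324-34959353, minus strand): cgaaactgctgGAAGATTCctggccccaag
Hsph1 (chr5:149636351-149636380, minus strand): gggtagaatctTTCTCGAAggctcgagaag
Hspb1 (chr5:135887791-135887820, plus strand): cttcaacaagaGAAGTTTCcagatgggggc
Hspb1 (chr5:135887811-135887840, plus strand): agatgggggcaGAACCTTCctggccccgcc
The runs of Hspe1 and Hspd1 are the 2 strands of 1 stretch, because these genes are read in opposite directions from a shared promoter. Its motif begins 89 bases upstream of the start of Hspe1 and 144 bases upstream of 1 of the 2 annotated starts of Hspd1. The window of the other Hspd1 start held no match. This motif lies inside an annotated exon of Hspd1, and that of Hsph1 inside an annotated exon of Hsph1. The runs of Hspa1a and Hspa1b are the same, and their motif begins 104 bases upstream of either start.

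Both copies of the inducible HSP70 gene lie on chromosome 17 of GRCm38 on the minus strand, Hspa1b at 34956436 to 34959238 and Hspa1a at 34969190 to 34972156, with 9951 bases between them. Of the 100-base stretches of the annotated transcripts, 47.1% of those of Hspa1a and 49.9% of those of Hspa1b occur unchanged in the other. Reads from those stretches cannot be assigned to 1 copy, so the split between the copies depends on the authors' estimation. Hspd1 (chromosome 1, 55077835 to 55088243, minus strand) and Hspe1 (chromosome 1, 55088132 to 55091307, plus strand) overlap by 112 bases. The sources used here do not say whether strand was used, so reads from that overlap cannot be told apart. Processed copies of these genes at 12 other loci reached at most 0.13 TPM.

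Libraries differed beyond their groups, and the first young control library and the second aged/doxo library stood apart. They held the lowest value of their group in 73.4% and 71.9% of the 10883 genes tested. In aged/doxo library 2 mitochondrially encoded transcripts took 27.6% of TPM, and 8.10% to 12.4% elsewhere. Median-of-ratios factors, which rescale a library by its typical gene, were 0.669 and 0.623 for these libraries and 0.958 to 1.27 for the rest. How deeply each library was sequenced cannot be read from TPM, and is unknown. Markers of hepatocytes summed to 42246 to 75200 TPM in every library, which matches the labelled tissue, and those of Kupffer cells and macrophages to 67.9 to 450.04 TPM. Markers of red blood cells summed to 836 to 1991 TPM in young control, 1839 to 2568 TPM in aged/doxo and 846 to 1778 TPM in treated libraries, and those of stellate cells and fibroblasts to 45.25 to 75.8, 54.5 to 128 and 64.5 to 80.8 TPM. The part of these cells in the values below was not tested. In bulk tissue, fewer cells of a type and less RNA per cell cannot be told apart.

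Heat shock transcripts were led by the constitutive chaperones in all 3 groups. By mean TPM the order began with Hspa8, Hsp90ab1, Hspe1 and Hspd1 in each group and ended with Hspa1a. In treated liver no neighbours from Hspa8 down to Hsp90aa1 overlapped, whereas Hsp90aa1 and Hspb1, Hspb1 and Hsph1, and Dnajb1 and Hspa1b did. In young control liver Hspa8 overlapped with Hsp90ab1 and Hsp90ab1 with Hspe1, and in aged/doxo liver every neighbour from Hspa8 to Hspb1 overlapped. The 10 genes together took 0.0522% of all TPM in aged/doxo library 2, 0.0875% in young control library 1 and at most 0.153%, in aged/doxo library 1.

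**Figure D1:**
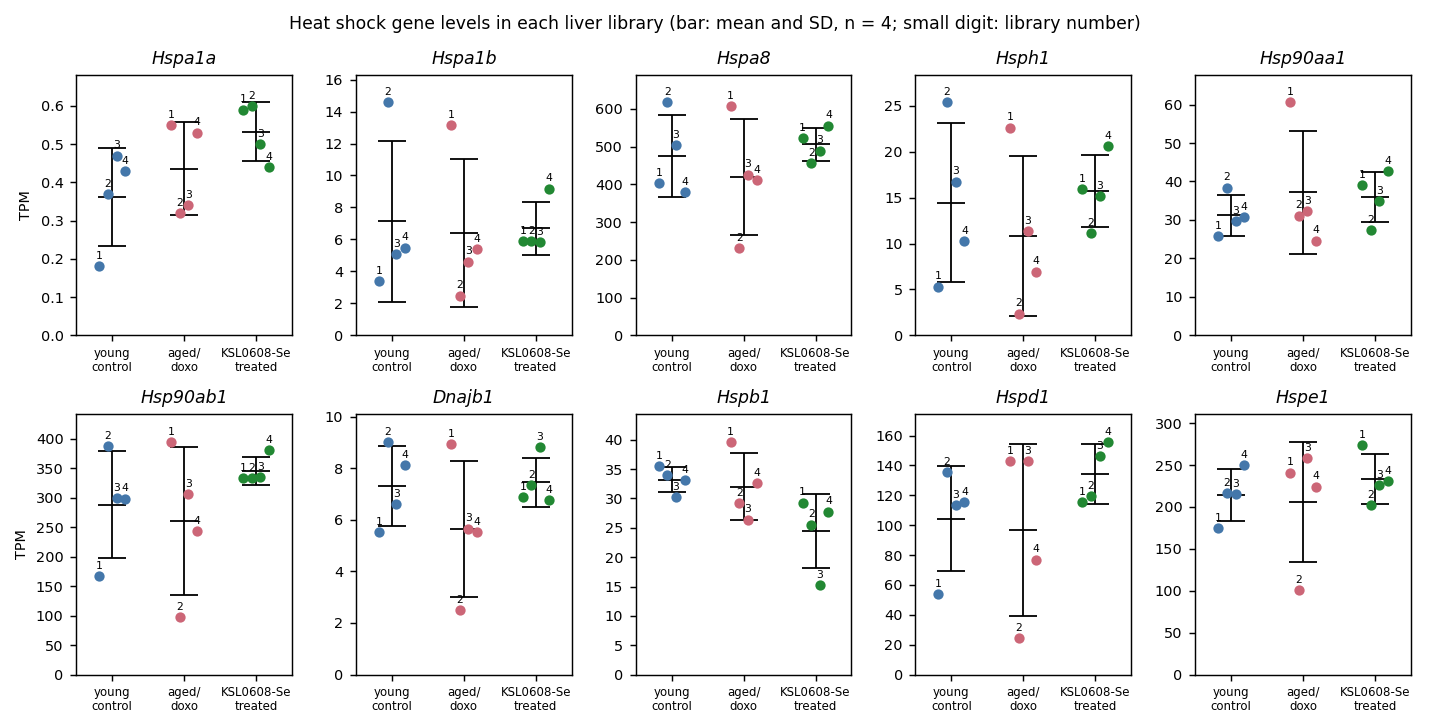
TPM of each of the 10 genes (vertical axis, linear, from 0) in the 4 libraries of each group (numbered points), with the group mean and SD. The groups overlapped for every gene except Hspb1 between treated liver (15.3 to 29.3 TPM) and young control liver (30.3 to 35.6 TPM).

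None of the 9 tested genes passed the test between groups in any of the 3 comparisons. With limma on log2(TPM + 1) and Benjamini-Hochberg adjustment over all 10883 genes, 0 of 9 passed an adjusted p of 0.05 in aged/doxo against young control liver, where 0.00919% of all genes passed. It was 0 of 9 in treated against aged/doxo liver (0.00919% of all genes) and 0 of 9 in treated against young control liver (0.0276%). At an unadjusted p of 0.05 the count was also 0 of 9 in each, against 1.98%, 4.77% and 3.4% of all genes. These comparisons share libraries, so they are not independent of each other. Calls were rare over the whole table, so a count of 0 among 9 genes does not set the heat shock genes apart from other genes.

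Hspa8 encodes HSC70, the constitutive HSP70 of the cytosol, which folds new proteins and uncoats clathrin vesicles. Its levels in young control libraries 1 to 4 were 403, 617, 503 and 379 TPM (476 ± 109, SD, n = 4). In aged/doxo libraries they were 607, 231, 426 and 411 TPM (419 ± 154, SD, n = 4), and in treated libraries 523, 456, 489 and 556 TPM (506 ± 42.9, SD, n = 4). All groups overlapped, the highest library was young control library 2 and the lowest aged/doxo library 2. The log2 difference was -0.24 (SE 0.27) in aged/doxo against young control, 0.35 (SE 0.27) in treated against aged/doxo and 0.11 (SE 0.27) in treated against young control liver.

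Hspa1b and Hspa1a encode the inducible HSP70, whose mRNA is low in unstressed tissue. Hspa1b stood at 3.38, 14.6, 5.09 and 5.48 TPM in young control, at 13.1, 2.48, 4.61 and 5.37 TPM in aged/doxo and at 5.89, 5.88, 5.84 and 9.18 TPM in treated libraries 1 to 4. One library of each group stood above the rest, young control library 2, aged/doxo library 1 and treated library 4, and the 3 groups overlapped throughout. Group means were 7.13 ± 5.04, 6.40 ± 4.65 and 6.70 ± 1.66 TPM (SD, n = 4 each). Its log2 differences, in the order of comparisons above, were -0.15, 0.23 and 0.07 (SE 0.43 each). Hspa1a stayed under 1 TPM, at 0.18 to 0.47 TPM in young control, 0.32 to 0.55 TPM in aged/doxo and 0.44 to 0.60 TPM in treated libraries. Without the minimum on low values its log2 differences were 0.08, 0.10 and 0.17 (SE 0.09 each, limma adjusted p 1, 0.625 and 0.824).

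The sum of both copies is less affected by how shared reads were split. It was 3.56, 14.9, 5.56 and 5.91 TPM in young control, 13.7, 2.80, 4.95 and 5.90 TPM in aged/doxo and 6.48, 6.48, 6.34 and 9.62 TPM in treated libraries. No comparison passed an exact two-sided permutation test (p = 0.714, 0.571 and 0.743, n = 4 against 4, smallest possible p 0.0286, adjusted p 0.943 over the 12 tests of sums and ratios). The inducible copies together amounted to 0.0149 ± 0.00680 of the Hspa8 level in young control, 0.0152 ± 0.00507 in aged/doxo and 0.0142 ± 0.00220 in treated liver (SD, n = 4 each; exact permutation p = 0.857, 0.886 and 0.943). Inducible HSP70 mRNA was therefore a small share of the cytosolic HSP70 mRNA in all groups. The reported ratio of Hspa1b to Hspa1a ran from 7.75 in aged/doxo library 2 to 39.4 in young control library 2.

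Hsph1 encodes HSP110, a nucleotide exchange factor for HSP70 and itself heat-inducible. Its range over 12 libraries was 10.7-fold, the widest of the 10 genes, and 4.78-fold without aged/doxo library 2, the source of its lowest value (a check chosen after the data were seen). Its CV (SD as a percent of the mean) over all 12 libraries, 51.7%, was below the 54.9% of Hspa1b. Its levels were 5.31, 25.4, 16.7 and 10.3 TPM in young control, 22.6, 2.37, 11.4 and 6.93 TPM in aged/doxo and 15.9, 11.1, 15.15 and 20.6 TPM in treated libraries. The lowest values came from aged/doxo library 2 and young control library 1, the highest from young control library 2 and from aged/doxo library 1, while groups overlapped. The log2 difference was -0.52 (SE 0.54, 95% interval -1.69 to 0.64) in aged/doxo against young control and 0.80 (SE 0.54, 95% interval -0.36 to 1.96, limma adjusted p 0.428) in treated against aged/doxo liver. These intervals hold changes of more than 2-fold, so the libraries leave the size of a difference loosely bounded.

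Dnajb1 encodes HSP40, the J-domain partner that starts the HSP70 cycle and a feedback partner of HSF1. It stood at 5.54, 9.03, 6.61 and 8.12 TPM in young control, at 8.93, 2.49, 5.66 and 5.53 TPM in aged/doxo and at 6.87, 7.34, 8.83 and 6.76 TPM in treated libraries. Aged/doxo library 2 was the lowest of all 12 and the groups overlapped. The log2 difference was -0.40 (SE 0.27, 95% interval -0.99 to 0.19) in aged/doxo against young control, 0.43 (SE 0.27, 95% interval -0.16 to 1.02) in treated against aged/doxo and 0.03 (SE 0.27) in treated against young control liver.

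Hsp90aa1 and Hsp90ab1 encode the inducible and the constitutive cytosolic HSP90. Hsp90ab1 stood at 167, 387, 299 and 298 TPM in young control, at 395, 97.75, 306 and 244 TPM in aged/doxo and at 334, 333, 335 and 379.9 TPM in treated libraries. The treated libraries were close to each other, inside the range of either other group. Its log2 difference was -0.25 (SE 0.37), 0.57 (SE 0.37, 95% interval -0.24 to 1.38) and 0.32 (SE 0.37) in the 3 comparisons. Hsp90aa1 stood at 25.8, 38.4, 29.75 and 30.8 TPM in young control, at 60.6, 31.1, 32.4 and 24.6 TPM in aged/doxo and at 39.1, 27.4, 34.8 and 42.6 TPM in treated libraries. Aged/doxo library 1 was the highest of all 12, and aged/doxo library 2 lay within the range of its group, unlike for Hsp90ab1. The log2 difference of Hsp90aa1 was 0.18 (SE 0.26), 0.02 (SE 0.26, 95% interval -0.55 to 0.59) and 0.20 (SE 0.26).

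Within a library, Hsp90aa1 reached 0.154, 0.0991, 0.0994 and 0.103 of Hsp90ab1 in young control, 0.153, 0.319, 0.106 and 0.101 in aged/doxo and 0.117, 0.0824, 0.104 and 0.112 in treated liver. The constitutive gene was the more abundant in all 12 libraries. The 3 highest ratios were those of aged/doxo library 2, young control library 1 and aged/doxo library 1. The groups did not pass the exact permutation test (p = 0.257, 0.257 and 0.6, n = 4 against 4, adjusted p 0.943).

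Hspb1 encodes HSP25 of the mouse, a small heat shock protein that holds unfolded proteins without ATP. It stood at 35.6, 33.9, 30.3 and 33.1 TPM in young control, at 39.7, 29.2, 26.4 and 32.65 TPM in aged/doxo and at 29.3, 25.6, 15.3 and 27.8 TPM in treated libraries. All 4 treated libraries lay below all 4 young control libraries, the 1 case without overlap among the tested genes and comparisons. In that direction 0.358% of all genes lacked overlap between these groups, and 4.02% in either direction. Means were 33.2 ± 2.21, 32.0 ± 5.72 and 24.5 ± 6.31 TPM (SD, n = 4 each). The log2 difference in treated against young control liver was -0.46 (SE 0.22, 95% interval -0.94 to 0.01, unadjusted p 0.0554, limma adjusted p 0.734), and Hspb1 ranked 405th of 10883 genes by p. In treated against aged/doxo liver it was -0.40 (SE 0.22, 95% interval -0.87 to 0.08, limma adjusted p 0.427) with overlapping groups. Neither passed the threshold. In the other comparisons no tested gene lacked overlap (0 of 9 in aged/doxo against young control, where 1% of all genes did, and 0 of 9 in treated against aged/doxo, where 3.13% did).

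The log2 difference of Hspb1 in both comparisons with treated liver was negative in all 23 alternative settings, at -0.74 to -0.26 against young control and -0.71 to -0.19 against aged/doxo liver. After median-of-ratios scaling Hspb1 stood at 53.2, 29.3, 31.6 and 29.8 in young control and at 28.5, 22.3, 12.3 and 21.9 in treated libraries. These did not overlap, though the nearest values were 28.5 and 29.3. The share of all genes without overlap was not counted on that scale, and the libraries are the same. Treated library 3 was the lowest on either scale, and young control library 1 became the highest after scaling.

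Hspd1 and Hspe1 encode HSP60 and HSP10, which form the barrel and the lid of the mitochondrial chaperonin. Hspd1 stood at 54.1, 135, 113 and 115 TPM in young control, at 143, 24.5, 143 and 76.9 TPM in aged/doxo and at 115, 119, 146 and 156 TPM in treated libraries. Hspe1 stood at 175, 216, 216 and 249.7 TPM in young control, at 241, 101, 259 and 224 TPM in aged/doxo and at 273, 202, 226 and 231 TPM in treated libraries. For both genes aged/doxo library 2 was lowest and young control library 1 second lowest, and the groups overlapped. The log2 difference of Hspd1 was -0.32 (SE 0.48) in aged/doxo against young control, 0.74 (SE 0.48, 95% interval -0.29 to 1.78) in treated against aged/doxo and 0.42 (SE 0.48) in treated against young control liver. Those of Hspe1 were smaller, at -0.13, 0.26 and 0.13 (SE 0.28 each).

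The level of Hspd1 relative to Hspe1, both per length, was 0.480 ± 0.132 in young control, 0.433 ± 0.167 in aged/doxo and 0.583 ± 0.113 in treated liver (SD, n = 4 each). It did not pass the exact permutation test (p = 0.657, 0.2 and 0.314, n = 4 against 4, adjusted p 0.943). Hspe1 was the more abundant of the pair in all 12 libraries.

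**Figure D2:**
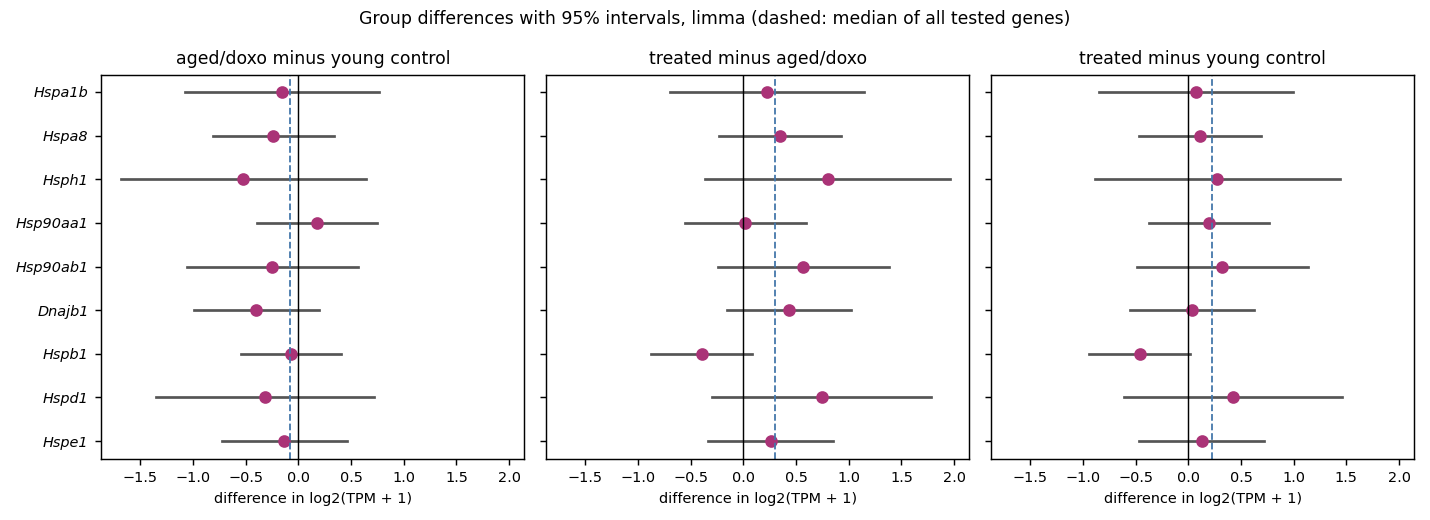
Differences in log2(TPM + 1) of the 9 tested genes (points) with 95% intervals from limma (bars) in the 3 comparisons; dashed lines mark the median of all 10883 genes tested (-0.08, 0.30 and 0.23). Every interval reaches 0, and Hspb1 is the 1 gene below 0 in all 3 panels.

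The 9 tested genes were also read as a list beside all genes. In aged/doxo against young control liver 8 of 9 were below 0, as were 64.6% of all genes, and the medians were -0.24 for the members and -0.08 for all genes. In treated against aged/doxo liver 8 of 9 were above 0 (81% of all genes), with medians of 0.35 and 0.30. In treated against young control liver 8 of 9 were above 0 (84% of all genes), with medians of 0.13 and 0.23. Median-of-ratios scaling moved the median of all genes to -0.04, 0.03 and -0.01 in the 3 comparisons, and that of the members to -0.20, 0.02 and -0.17. In aged/doxo against young control liver the members' median was -0.19 with quantile normalization (all genes -0.02) and -0.15 with the mitochondrial genes left out of the total (all genes -0.0037). With median-of-ratios scaling the sign turned for Hspa1b, Hsp90aa1 and Hspe1 in treated against aged/doxo liver. In treated against young control liver it turned for these and for Hspa8 and Dnajb1.

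The 2 libraries that stood apart, young control 1 and aged/doxo 2, weighed on these values. With both left out, the median of the members was -0.05 in aged/doxo against young control, 0.09 in treated against aged/doxo and 0.03 in treated against young control liver, and 0 of 9 passed in each. Without aged/doxo library 2 alone, the median in aged/doxo against young control liver turned to 0.14. Hsph1 in treated against aged/doxo liver came to 0.31, Hspd1 to 0.19 and Hsp90ab1 to 0.16 without both libraries, while Hspb1 came to -0.43 in both comparisons with treated liver.

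In aged/doxo library 2 the genes were low to very different degrees. The mean of the other 3 libraries of its group was 5.76-fold its level for Hsph1, 4.93-fold for Hspd1, 3.22-fold for Hsp90ab1 and 3.11-fold for Hspa1b. It was 2.69-fold for Dnajb1, 2.40-fold for Hspe1 and 2.08-fold for Hspa8, but only 1.26-fold for Hsp90aa1 and 1.13-fold for Hspb1. In 8 of the 10 genes this library was the lowest of its group, as in 71.9% of all genes. After median-of-ratios scaling it was still the lowest for 7 of the 10, against 40.5% of all genes, with 3.28-fold for Hsph1, 2.87-fold for Hspd1 and 1.21-fold for Hspa8, while Hsp90aa1 (49.97) and Hspb1 (46.9) were above the mean of the others. The part of the mitochondrial transcripts in this was not tested.

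Young control library 1 was low too, by smaller folds and in another order of genes. The other 3 libraries of its group averaged 3.29-fold its level for Hsph1, 2.48-fold for Hspa1b, 2.24-fold for Hspd1 and 1.96-fold for Hsp90ab1, and 0.912-fold for Hspb1. It was the lowest of its group for 8 of the 10 genes, as in 73.4% of all genes, and for 4 of the 10 after scaling, against 36.8% of all genes.

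High values gathered in other libraries. Young control library 2 was the highest of its group for 7 of the 10 genes and aged/doxo library 1 for 8, against 50.2% and 51.7% of all genes. After scaling the counts were 3 (30.8% of all genes) and 6 (29.4%). Hspa1b stayed high there after scaling, at 12.6 in young control library 2 and 11.3 in aged/doxo library 1, and so did Hsph1, at 21.9 and 19.4. The immediate early genes, which rise within minutes of handling or stimulation, summed to 120.01 TPM in the first of these libraries and 67.1 to 123 TPM over its group, and to 108 TPM in the second and 79.25 to 118 TPM over its group.

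**Figure D3:**
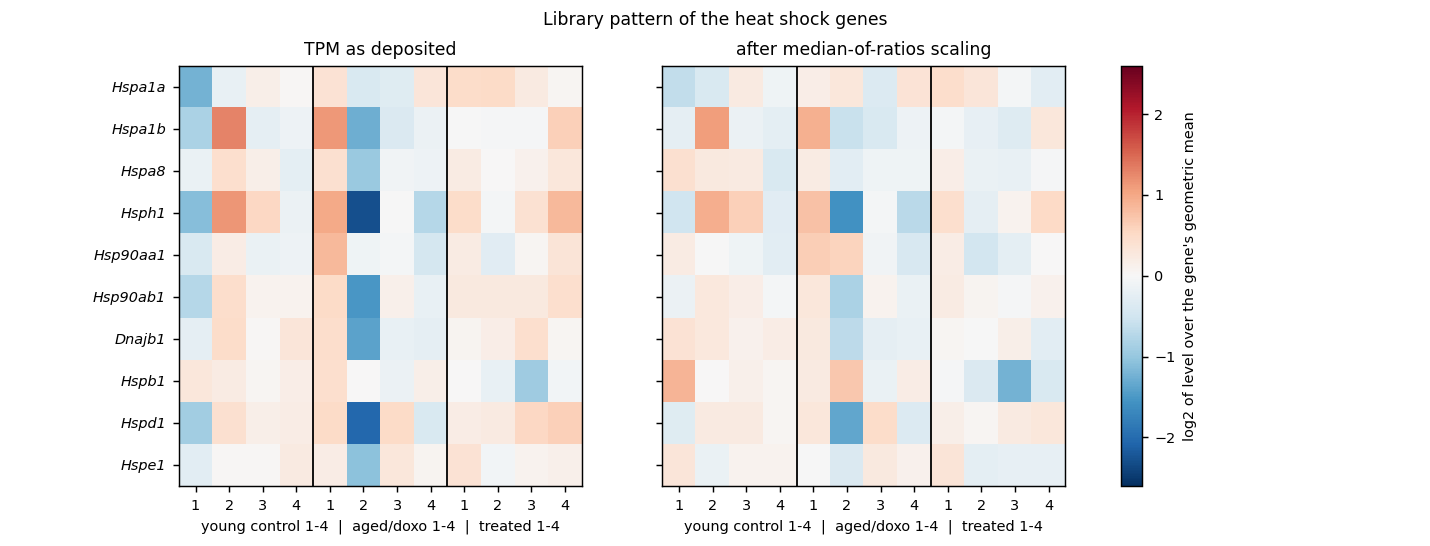
Log2 of the level of each gene (rows) in each library (columns, by group) over its geometric mean in all 12 libraries, as a colour scale, for TPM as deposited and after median-of-ratios scaling. Aged/doxo library 2 is the lowest of its group for 8 genes as deposited and 7 after scaling, and Hspb1 and Hsp90aa1 are not among them.

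The spread within groups was smallest in treated liver for 8 of the 10 genes on the deposited scale, all but Hsp90aa1 and Hspb1. That count was 5 of 10 after median-of-ratios scaling and 5 of 10 on the deposited scale without aged/doxo library 2 and young control library 1, both checks chosen after the data were seen. The CV of Hsp90ab1 was 31.5% in young control, 48.0% in aged/doxo and 6.69% in treated liver, and that of Hsph1 60.1%, 80.3% and 24.9%. Without those 2 libraries the CV of Hsp90ab1 was 15.6% in young control and 24.1% in aged/doxo liver, and that of Hsph1 43.3% and 59.3%. The median CV of all genes followed the same order, 29.9%, 36.9% and 17.7%, and 5, 6 and 4 of the 10 members were above it. Hspb1 went the other way on the deposited scale, with 6.64%, 17.9% and 25.8%, but not after scaling, with 32.0%, 25.4% and 31.3%. After scaling the median CV of all genes was 21.3%, 28.1% and 15.7%. How many of all genes had their smallest CV in treated liver was not counted, so the counts of 8 and 5 do not set the members apart from other genes. The difference in spread was not tested.

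On the deposited scale members moved together from library to library, apart from Hspb1. Likeness to the members' mean pattern was common there, with a median r of 0.772 over 5876 other genes of at least 5 TPM. That value sets single genes against a mean and is unlike the r of pairs. No background from pairs of other genes was computed on either scale, so the values below do not set the members apart. Over 12 libraries the 28 pairs among the other 8 tested genes had a median Pearson r of 0.827 (range 0.300 to 0.979) in log2(TPM + 1), and the 8 pairs with Hspb1 a median of -0.04 (range -0.21 to 0.21). After median-of-ratios scaling the median of the 28 pairs was 0.416 (range -0.34 to 0.933). That of the 8 pairs with Hspb1 was then -0.03 (range -0.59 to 0.54). The r of Hsp90aa1 on that scale ran from -0.34 with Hspd1 to 0.54 with Hspb1. These pairs share libraries and the scaling of TPM, and are given as a description.

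Of 6 pairs chosen by family, shared promoter, chaperone partnership or, for Hsph1 and Cirbp, opposite response to temperature, Hspa8 and its exchange factor Hsph1 had the highest r. Pearson r was 0.948 (permutation p = 2e-05, adjusted p 0.00012) and Spearman rho 0.965 (permutation p = 1e-05, the smallest that the resamples can give, adjusted p 6e-05) over 12 libraries. Without the 2 libraries farthest from the median of Hspa8, aged/doxo 2 and young control 2, r was 0.880, and with group means removed it was 0.938. Permutation p-values do not allow for shifts of a library that most genes share. Outside the 6 pairs, Hsp90ab1 and Hspd1 had r = 0.979, and Hsph1 and Hsp90ab1 0.946. After median-of-ratios scaling r over all 12 libraries was 0.523 for Hspa8 and Hsph1 (adjusted p 0.364), and 0.923 for Hsph1 and Hsp90ab1. On that scale the r of Hspa8 and Hsph1 was 0.837 without young control libraries 1 and 4, the farthest from the median of Hspa8. It was 0.818 without aged/doxo library 2 and young control library 1. Hspd1 and Hspe1, which share a promoter, had r = 0.892 (permutation p = 0.00348, adjusted p 0.0104) and rho = 0.552 (permutation p = 0.0673, adjusted p 0.0842). Without aged/doxo library 2 and young control library 1 their r was 0.120, so it rests on those libraries.

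The remaining pairs had lower r over all 12 libraries. Hsp90aa1 and Hsp90ab1 had r = 0.501 (permutation p = 0.105, adjusted p 0.2) and rho = 0.797 (permutation p = 0.0029, adjusted p 0.0087), and r was 0.400 without aged/doxo library 1 and treated library 4. Without aged/doxo library 2 and young control library 1, however, their r was 0.826, and on the median-of-ratios scale it went from -0.21 over all 12 libraries to 0.777 without those libraries. On that scale it was 0.348 without aged/doxo libraries 1 and 2, the farthest from the median of Hsp90aa1, and -0.08 with group means removed. For Hspa1a and Hspa1b r was 0.400 (permutation p = 0.196, adjusted p 0.2), rho was 0.545 (permutation p = 0.0701, adjusted p 0.0842), and r was -0.10 without aged/doxo library 2 and young control library 1. Hsp90aa1 and Dnajb1 had r = 0.415 (permutation p = 0.172, adjusted p 0.2), rho = 0.559 (permutation p = 0.0645, adjusted p 0.0842), and r = 0.324 without aged/doxo library 1 and treated library 4. Their r was 0.541 without aged/doxo library 2 and young control library 1. Hsph1 and Cirbp, the gene of an RNA-binding protein that is induced by cold and repressed by heat, had r = 0.398 (permutation p = 0.2, adjusted p 0.2) and rho = 0.0979 (permutation p = 0.766, adjusted p 0.766). Their r turned to -0.57 when aged/doxo library 2 and young control library 1 were left out. On the median-of-ratios scale it was -0.47 over all 12 libraries, -0.81 with those 2 left out and -0.40 with group means removed. Without aged/doxo library 2 and young control library 2, the farthest from the median of Hsph1 on that scale, it was -0.47. No batch is named in the labels, so no within-batch value could be given.

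**Figure D4:**
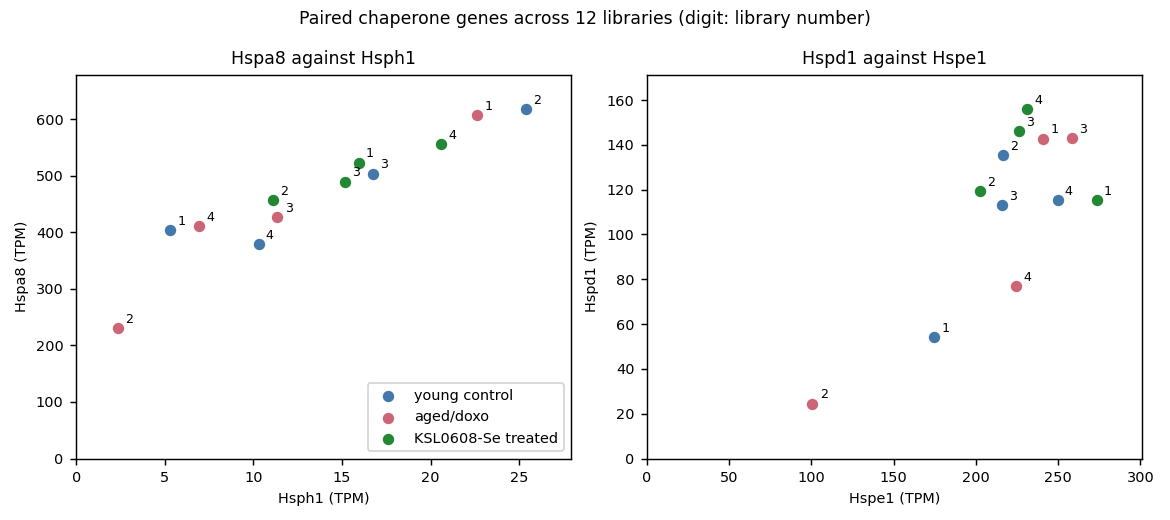
TPM of paired genes in the 12 libraries (points numbered by library, colours by group; linear axes from 0). Hspa8 and Hsph1 lie along a line (r = 0.948 in log2(TPM + 1)), whereas the relation of Hspd1 and Hspe1 rests on the lowest points, aged/doxo library 2 and young control library 1.

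The genes whose pattern was most like the mean of the members' z-scores over 12 libraries, among 5876 genes of at least 5 TPM, were H1f2 (r = 0.977, a linker histone), Slc16a1 (r = 0.965, the lactate transporter MCT1), Serp1 (r = 0.965, a protein of the endoplasmic reticulum), Ncbp1 (r = 0.961, a subunit of the mRNA cap-binding complex), Trappc6b (r = 0.960) and Slc25a45 (r = 0.958). The most opposite were Clk1 (r = -0.95, a kinase of splicing factors), Fxyd1 (r = -0.93, a regulator of the sodium pump) and Apoc3 (r = -0.91, an apolipoprotein). High likeness was common: the median r of all candidates was 0.772, and 5.89% of them were above 0.9. After median-of-ratios scaling the median was 0.220, with r = 0.876 for H1f2 and 0.475 for Serp1.

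Other genes of protein folding gave the same picture. Of 130 genes in 12 lists by role, 111 were tested, and 0 passed in any of the 3 comparisons (limma, adjusted over all 10883 genes). At an unadjusted p of 0.05 there were 0, 3 and 5 of the 111, against 1.98%, 4.77% and 3.4% of all genes. The medians of the 111 were -0.09, 0.38 and 0.29, beside -0.08, 0.30 and 0.23 for all genes. The 13 HSP90 co-chaperones had medians of -0.17, 0.42 and 0.23. Chordc1, which helps load HSP90, averaged 9.05 TPM in treated and 5.35 TPM in young control liver (log2 difference 0.69, SE 0.40, adjusted p 0.734). The 12 J-domain partners had medians of -0.07, 0.36 and 0.28, with Dnajc5 at 10.4 TPM in treated against 6.28 TPM in aged/doxo liver (log2 difference 0.75, SE 0.39, adjusted p 0.427).

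Among the 7 tested exchange factors for HSP70, Bag4 was at 5.05 TPM in treated against 2.87 TPM in aged/doxo liver (log2 difference 0.72, SE 0.30, unadjusted p 0.0325, adjusted p 0.427). Of the 3 tested small heat shock protein genes other than Hspb1, Cryab was at 5.29 TPM in aged/doxo against 3.40 TPM in young control liver (log2 difference 0.45, SE 0.23, adjusted p 1) and Hspb8 at 67.6 TPM in treated and 64.2 TPM in young control liver (log2 difference 0.10, SE 0.24). In treated against aged/doxo liver Cryab was at 3.715 against 5.29 TPM (log2 difference -0.34, SE 0.23, adjusted p 0.427).

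Regulators of the response were measured too. Hsf1 itself, named here after its values were seen, averaged 5.80 TPM in young control, 5.39 TPM in aged/doxo and 6.28 TPM in treated liver (log2 differences -0.04, 0.19 and 0.15, SE 0.23 each). HSF1 is switched on at the protein level, so its mRNA does not report its activity. Hsf2, a heat shock factor, was at 5.55 TPM in treated and 4.12 TPM in young control liver (log2 difference 0.37, SE 0.18, unadjusted p 0.0614, adjusted p 0.734), and Vcp, a segregase that works with ubiquitin, at 121.7 TPM in treated against 79.0 TPM in aged/doxo liver (log2 difference 0.89, SE 0.50, adjusted p 0.427). In the list of temperature and clock marks, the clock repressors Nr1d1 (22.3 against 6.90 TPM, log2 difference 1.43, unadjusted p 0.00872) and Nr1d2 (4.34 against 1.94 TPM, log2 difference 0.83, unadjusted p 0.00588) were nearest to the threshold in treated against young control liver, both at an adjusted p of 0.734. The sources used here do not state the time of day.

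Chaperones of other compartments and the cytosolic chaperonin were counted in the same way, and no difference from the members was tested. The 13 genes for chaperones of the endoplasmic reticulum had medians of -0.25, 0.56 and 0.36. In the first comparison 13 of 13 were below 0 (64.6% of all genes), and in the others 13 of 13 were above 0 (81% and 84% of all genes). Signs after scaling were not counted for this list. Hspa5, which encodes BiP, the HSP70 of the endoplasmic reticulum, averaged 336 TPM in treated against 219.9 TPM in aged/doxo liver (log2 difference 0.91, SE 0.53, adjusted p 0.427). The 11 mitochondrial chaperones and proteases had medians of -0.18, 0.56 and 0.32, with Hspa9, the mitochondrial HSP70, at 156 TPM in treated against 101 TPM in aged/doxo liver (log2 difference 1.05, SE 0.60, adjusted p 0.427). The 14 subunits of the cytosolic chaperonin TRiC and of prefoldin had medians of -0.04, 0.18 and 0.13. Their prefoldin members Pfdn6 (51.3 against 75.4 TPM, log2 difference -0.49, adjusted p 0.427) and Pfdn2 (41.8 against 58.7 TPM, log2 difference -0.44, adjusted p 0.427) were below 0 in treated against aged/doxo liver, as Hspb1 was.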

How the data were processed

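Liver RNA-seq of 12 mouse libraries was analysed. The authors deposited TPM per gene, rounded to 2 decimals. Per the submitters' processing notes the tools were fastp for read trimming, HISAT for spliced alignment and RSEM for estimating expression. The sources used here give no versions and no genome build. Because the total is fixed, very abundant transcripts can move every other value. Depth is unknown, so values carry no counting interval.

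Groups came from the labels. Tests used log2(TPM + 1), a scale on which changes of low genes are understated. The 10883 genes whose mean reached 1 TPM were fitted over all 12 libraries with limma 3.58.1 (R 4.3.3, intensity trend, two-sided), with Benjamini-Hochberg adjustment over all of them and a threshold of 0.05. The fit was tested on simulated data. Sums and ratios of members were compared by exact permutation over 70 divisions, and correlations by 100000 resamples. Positions are those of GENCODE M21 (GRCm38), matched by gene identifier. Python 3.11.15 and matplotlib 3.10.9 made the figures. Alternatives covered the pseudocount, the filter, the scaling, the total, a replicate block, weights, a length slope, the groups fitted and each library left out.

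All members are named. From each role list, up to 2 genes of smallest p were named, since none passed, and for likeness the 6 highest and the 3 lowest r. The members and lists were chosen with earlier results of these data known. One gene that the rule names is not reported here.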

Additional observations from a re-analysis of the deposited data

Results flagged for a closer look

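In 4 of 42 sets of 4 libraries, 1 library lay far from the other 3 by Dixon's 95% criterion, which chance alone flags in about 1 in 20 sets. In treated library 4, Hspa1b stood at 9.18 TPM against 5.84 to 5.89 TPM in the other treated libraries, and with it the sum of Hspa1a and Hspa1b at 9.62 TPM against 6.34 to 6.48 TPM. Hsp90ab1 in the same library was at 379.94 TPM, against 333 to 335 TPM in the others. Young control library 1 had an Hsp90aa1 to Hsp90ab1 ratio of 0.154, against 0.0991 to 0.103 in the others of its group, and it is 1 of the 2 libraries that stood apart over all genes. The part of library quality in these values was not tested.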

How the results depend on the processing

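In 621 tests of single members under 23 alternatives, 0 passed the threshold and 66 turned sign, and the lowest limma adjusted p was 0.128 (Dnajb1 in treated against aged/doxo liver, array quality weights). The median of the members in aged/doxo against young control liver ran from -0.50 to 0.14 over the left-out libraries, and aged/doxo library 2 turned it. The sequencing depth is unknown, and the SEs of 0.22 to 0.54 limit what 4 libraries a group can show.

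With quantile normalization, log2 differences turned sign in aged/doxo against young control liver for Hspb1 (0.0068), in treated against aged/doxo liver for Hspa1b (-0.0662) and Hsp90aa1 (-0.29), in treated against young control liver for Hspa1b (-0.17), Hspa8 (-0.0387), Hsp90aa1 (-0.0246), Dnajb1 (-0.20) and Hspe1 (-0.0408). With median-of-ratios scaling, log2 differences turned sign in treated against aged/doxo liver for Hspa1b (-0.0381), Hsp90aa1 (-0.30) and Hspe1 (-0.0718), in treated against young control liver for Hspa1b (-0.17), Hspa8 (-0.18), Hsp90aa1 (-0.0862), Dnajb1 (-0.22) and Hspe1 (-0.17). With array quality weights, log2 differences turned sign in aged/doxo against young control liver for Hsp90ab1 (0.0129), Hspd1 (0.26) and Hspe1 (0.19), in treated against aged/doxo liver for Hspd1 (-0.00908) and Hspe1 (-0.18), in treated against young control liver for Hsph1 (-0.0328). With the length slope as a covariate, log2 differences turned sign in aged/doxo against young control liver for Hspa1b (0.0719), in treated against aged/doxo liver for Hspa1b (-0.46), Hsph1 (-0.0823), Hsp90aa1 (-0.27) and Hspd1 (-0.00212), in treated against young control liver for Hspa1b (-0.39), Hspa8 (-0.10), Hsph1 (-0.32), Hsp90ab1 (-0.062), Dnajb1 (-0.21), Hspd1 (-0.0762) and Hspe1 (-0.0142). With young control library 1 and aged/doxo library 2 both left out, log2 differences turned sign in aged/doxo against young control liver for Hspb1 (0.00218) and Hspe1 (0.0873), in treated against aged/doxo liver for Hspa1b (-0.0712), Hsp90aa1 (-0.0359) and Hspe1 (-0.0545), in treated against young control liver for Hspa1b (-0.17), Hsph1 (-0.0907) and Dnajb1 (-0.0753). With the mitochondrial genes left out of the total, log2 differences turned sign in aged/doxo against young control liver for Hspb1 (0.0214), in treated against aged/doxo liver for Hsp90aa1 (-0.0649). In aged/doxo against young control liver, leaving out each library in turn gave log2 differences of -0.53 to 0.22 for Hspa1b, -0.44 to 0.0212 for Hspa8, -0.0789 to 0.34 for Hsp90aa1, -0.50 to 0.16 for Hsp90ab1, -0.17 to 0.0174 for Hspb1, -0.60 to 0.23 for Hspd1, -0.27 to 0.18 for Hspe1, -0.57 to 0.24 for Hspa1a plus Hspa1b, -0.14 to 0.35 for Hspa1a plus Hspa1b over Hspa8 and -0.39 to 0.0526 for Hspd1 over Hspe1. In treated against aged/doxo liver, leaving out each library in turn gave log2 differences of -0.0712 to 0.60 for Hspa1b, -0.15 to 0.28 for Hsp90aa1, -0.0545 to 0.40 for Hspe1, -0.0501 to 0.71 for Hspa1a plus Hspa1b and -0.16 to 0.16 for Hspa1a plus Hspa1b over Hspa8. In treated against young control liver, leaving out each library in turn gave log2 differences of -0.17 to 0.44 for Hspa1b, -0.0907 to 0.60 for Hsph1, -0.0753 to 0.13 for Dnajb1, -0.15 to 0.54 for Hspa1a plus Hspa1b, -0.18 to 0.0361 for Hsp90aa1 over Hsp90ab1 and -0.19 to 0.29 for Hspa1a plus Hspa1b over Hspa8.

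The small differences in sums and ratios also moved without the 2 libraries that stand apart. Hspa1a plus Hspa1b then came to -0.0501 in treated against aged/doxo and -0.15 in treated against young control liver. In aged/doxo against young control liver it kept its sign, at -0.10. Hsp90aa1 over Hsp90ab1 came to 0.0361 in treated against young control liver. Hspa1a plus Hspa1b over Hspa8 came to -0.04999 in aged/doxo and -0.19 in treated against young control liver. Single other libraries turned signs too: without young control library 2, Hspa1a plus Hspa1b came to 0.24 in aged/doxo against young control liver. Median-of-ratios scaling brought r to 0.523 for Hspa8 and Hsph1, 0.317 for Hspd1 and Hspe1, -0.18 for Hspa1a and Hspa1b, -0.21 for Hsp90aa1 and Hsp90ab1, -0.11 for Hsp90aa1 and Dnajb1 and -0.47 for Hsph1 and Cirbp. Without both of those libraries the scaled r was 0.818 for Hspa8 and Hsph1 and 0.777 for Hsp90aa1 and Hsp90ab1. It was 0.350 for Hsp90aa1 and Dnajb1, but -0.03 for Hspd1 and Hspe1 and -0.23 for Hspa1a and Hspa1b. Hsph1 and Cirbp had the lowest value, -0.81, so the pairs did not move in a common direction. Without the 2 libraries farthest from the median of the first gene instead, the scaled r was 0.837 for Hspa8 and Hsph1 and 0.348 for Hsp90aa1 and Hsp90ab1. It was then 0.317 for Hsp90aa1 and Dnajb1, -0.24 for Hspd1 and Hspe1, -0.31 for Hspa1a and Hspa1b and -0.47 for Hsph1 and Cirbp.

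Genes called over the whole table changed as follows. In aged/doxo against young control liver (1 gene) there were 2 with a pseudocount of 0.1, 0 with no filter, 3 with median-of-ratios scaling, 2 with quantile normalization, 0 with the compared groups alone, 74 with array quality weights, 2 with the length slope, and 0 to 2 without single libraries. In treated against aged/doxo liver (1 gene) there were 0 with no filter, with either scaling, with the length slope or without both libraries, 2 with the compared groups alone, 77 with array quality weights, and 0 to 1 without single libraries. In treated against young control liver (3 genes) there was 1 with no filter or the compared groups alone, 29 with array quality weights, 5 with the mitochondrial genes left out of the total, and 1 to 5 without single libraries. None of these settings called a member. The causes were not tested.

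With the replicate number as a block, 0, 0 and 1 genes were called in the 3 comparisons, and 0 members. Libraries of the same number correlated at -0.58 to 0.39 in their deviations from the group means, so the numbers were not read as a pairing.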
